A study of Mus musculus with 57 samples.

Results

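The HOX cluster genes were defined by their symbol: every gene of the deposited table with an Ensembl gene ID and a name made of Hox, the letter a, b, c or d of its cluster and a number. This rule found 39 genes among 56332 in the table. The HOXA cluster gave 11 members, HOXB 10, HOXC 9 and HOXD 9. The rule uses names and IDs alone, but it was chosen with earlier results of these data known. All 39 were annotated as protein coding in GENCODE mouse release M21 (build GRCm38). HOXA lay on chromosome 6 between bases 52155590 and 52260880 on the minus strand. HOXB lay on chromosome 11 (96194316 to 96368256), HOXC on chromosome 15 (102921103 to 103036852) and HOXD on chromosome 2 (74668310 to 74765142), all on the plus strand.

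RNA was measured in bone marrow of C57BL/6 males that entered treatment at the age of 8 weeks and received, over 4 weeks, either a control or an antibody against PAPP-A, a secreted protease that cleaves insulin-like growth factor binding proteins. Marrow was sequenced whole (WBM, 4 control libraries) or sorted into 6 populations. These were hematopoietic stem cells (HSC, 3 control and 4 treated libraries), common lymphoid progenitors (CLP, 4 and 4), granulocyte macrophage progenitors (GMP, 4 and 4), megakaryocyte erythrocyte progenitors (MEP, 4 and 4), myeloid cells (6 and 6) and mesenchymal stromal cells (MSC, 6 and 4). All mice were of the same strain and sex and none carried a transgene that the labels name. Each library came from a pool of mice of unstated size, with 10 control and 10 treated pools, and p-values measure the spread between pools. The sort gates are not given in the labels. The labels name 3 batches without saying what the letter stands for. Batch A held all HSC, CLP, GMP and MEP libraries with 3 of WBM and 4 of MSC, batch B only myeloid libraries, and batch C myeloid, MSC and WBM libraries.

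HOX genes encode homeodomain transcription factors that give cells of the embryo their position along the body axis. Within a cluster the genes stand in a fixed order, numbered from the end that is expressed first and most anteriorly, and genes with the same number in different clusters are paralogues that derive from a common ancestor. HOX proteins bind DNA together with partners of the PBX and MEIS families (the TALE cofactors), the trithorax protein MLL (Kmt2a) keeps active clusters on, and Polycomb complexes keep silent ones off. In blood formation, Hoxa9 with Meis1 supports the self-renewal of stem and progenitor cells and drives leukaemia when it persists, and stromal cells of the skeleton keep a HOX code from the embryo.

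Promoters of 22 members were found in a RefSeq table (build GRCm38.p6), as 24 stretches of 250 bases before a start. They are given for Hoxa2, Hoxa9, Hoxb4 and Hoxd8, chosen for where their mean reached 1 count per 1000000 (CPM) in control libraries: Hoxa2 in HSC, CLP and MSC, Hoxa9 in all populations except myeloid cells, Hoxb4 in all 7, and Hoxd8 in MSC alone. Each is written 5′ to 3′ on the gene's strand, at chr6:52164832-52165081 (minus), chr6:52227371-52227620 (minus), chr11:96318017-96318266 (plus) and chr2:74704365-74704614 (plus). Capitals mark matches, on either strand, to the MEIS motif TGACAG, the PBX-HOX motif TGATTNAT, the CCAAT box or TATAAA, and neighbouring matches run together.
Hoxa2: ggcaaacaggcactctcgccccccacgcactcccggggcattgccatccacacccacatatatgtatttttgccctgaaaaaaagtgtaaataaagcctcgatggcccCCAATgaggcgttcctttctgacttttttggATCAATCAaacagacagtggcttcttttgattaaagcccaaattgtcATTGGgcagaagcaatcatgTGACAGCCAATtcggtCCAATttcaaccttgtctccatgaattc
Hoxa9: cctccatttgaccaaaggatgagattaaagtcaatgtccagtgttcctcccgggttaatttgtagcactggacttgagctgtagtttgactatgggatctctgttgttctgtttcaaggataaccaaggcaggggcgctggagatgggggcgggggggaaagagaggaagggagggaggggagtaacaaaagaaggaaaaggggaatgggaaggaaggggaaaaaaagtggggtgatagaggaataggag
Hoxb4: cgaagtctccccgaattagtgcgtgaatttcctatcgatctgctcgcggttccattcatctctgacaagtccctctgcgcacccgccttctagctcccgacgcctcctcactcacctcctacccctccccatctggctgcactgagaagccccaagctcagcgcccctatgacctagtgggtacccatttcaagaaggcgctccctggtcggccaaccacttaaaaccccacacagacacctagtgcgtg
Hoxd8: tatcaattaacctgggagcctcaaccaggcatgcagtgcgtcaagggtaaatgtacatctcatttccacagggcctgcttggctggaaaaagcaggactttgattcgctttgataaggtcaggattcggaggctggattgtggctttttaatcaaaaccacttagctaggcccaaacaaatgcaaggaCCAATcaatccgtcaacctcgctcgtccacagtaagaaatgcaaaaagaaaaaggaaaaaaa
Hoxa2 held 1 MEIS match, 1 PBX-HOX match and 4 CCAAT matches, Hoxd8 held 1 CCAAT match, and Hoxa9 and Hoxb4 held none of these letters. Among all 24 HOX stretches, 2 held the MEIS motif (15.9% of 32851 promoters of the same length), 2 the PBX-HOX motif (2.82%), 14 a CCAAT (33.8%) and 4 a TATAAA (12.4%). Promoters of HOX genes held a median of 12.5 CG pairs and 58.6% G or C, against 6 and 52.4% over all promoters. These matches describe the letters of the windows and were not tested against the expression values.

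Total counts per library ran from 107412 to 125537299, and 4 libraries had under 1000000: HSC treated pool 6, CLP control pool 5 (587316), MSC control pool 7 (321860) and MSC treated pool 8 (499300). In MSC control pool 7, 76.7% of counts fell on Ensembl genes and the summed level of 4 plasma cell markers was 8758 CPM (counts per 1000000, scaled by TMM library size), against 598 to 769 in the other 5 control MSC libraries. A single count there equals 6.21 CPM. The defining markers were highest in the population of their label: the summed control level of 6 HSC markers was at least 714 CPM in HSC and at most 59.7 in the other populations, and 6 MSC markers summed to at least 30415 CPM in MSC and at most 96.0 elsewhere. CLP libraries also carried GMP markers (2826 to 9387 CPM, against 24586 to 36284 in GMP). The summed level of 1111 olfactory receptor genes, a list added after the values were seen, set some libraries apart. It was 1803 CPM in CLP control pool 1 and 5929 in CLP treated pool 2, against 143 to 577 in the other 6 CLP libraries. The same 2 libraries held 403 and 391 CPM of 5 osteoblast markers, against 7.32 to 23.1 in the other 6, and 7936 and 8096 CPM of myeloid markers, against 342 to 2017. MSC markers summed to 97.0 CPM in CLP treated pool 2, with 65.1 of Cxcl12, and to 12.2 to 33.4 in the other 7. Myeloid libraries of batch C had 785 to 2425 CPM of olfactory receptor genes and those of batch B 382 to 1094.

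Across the control libraries, 30 of the 39 members had a mean of at least 1 CPM in some population. MSC had 28 such members (10 HOXA, 8 HOXB, 7 HOXC and 3 HOXD), HSC 15 (8 HOXA and 7 HOXB), CLP 12, and GMP 8, MEP 9, myeloid cells 9 and WBM 9. In HSC, GMP and MEP, all members at this level belonged to HOXA and HOXB, whereas the 9 of the myeloid cells held 4 HOXB, 2 HOXC, 3 HOXD and no HOXA gene. Hoxb3 and Hoxb4 reached 1 CPM in all 7 populations. Members that did so in MSC alone included Hoxa11, Hoxb7, Hoxc6, Hoxc10 and Hoxd8. Without the libraries under 1000000 counts, CLP had 15 such members and the counts of the other populations did not move, although in MSC Hoxa13 entered and Hoxb9 left.

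**Figure D1:**
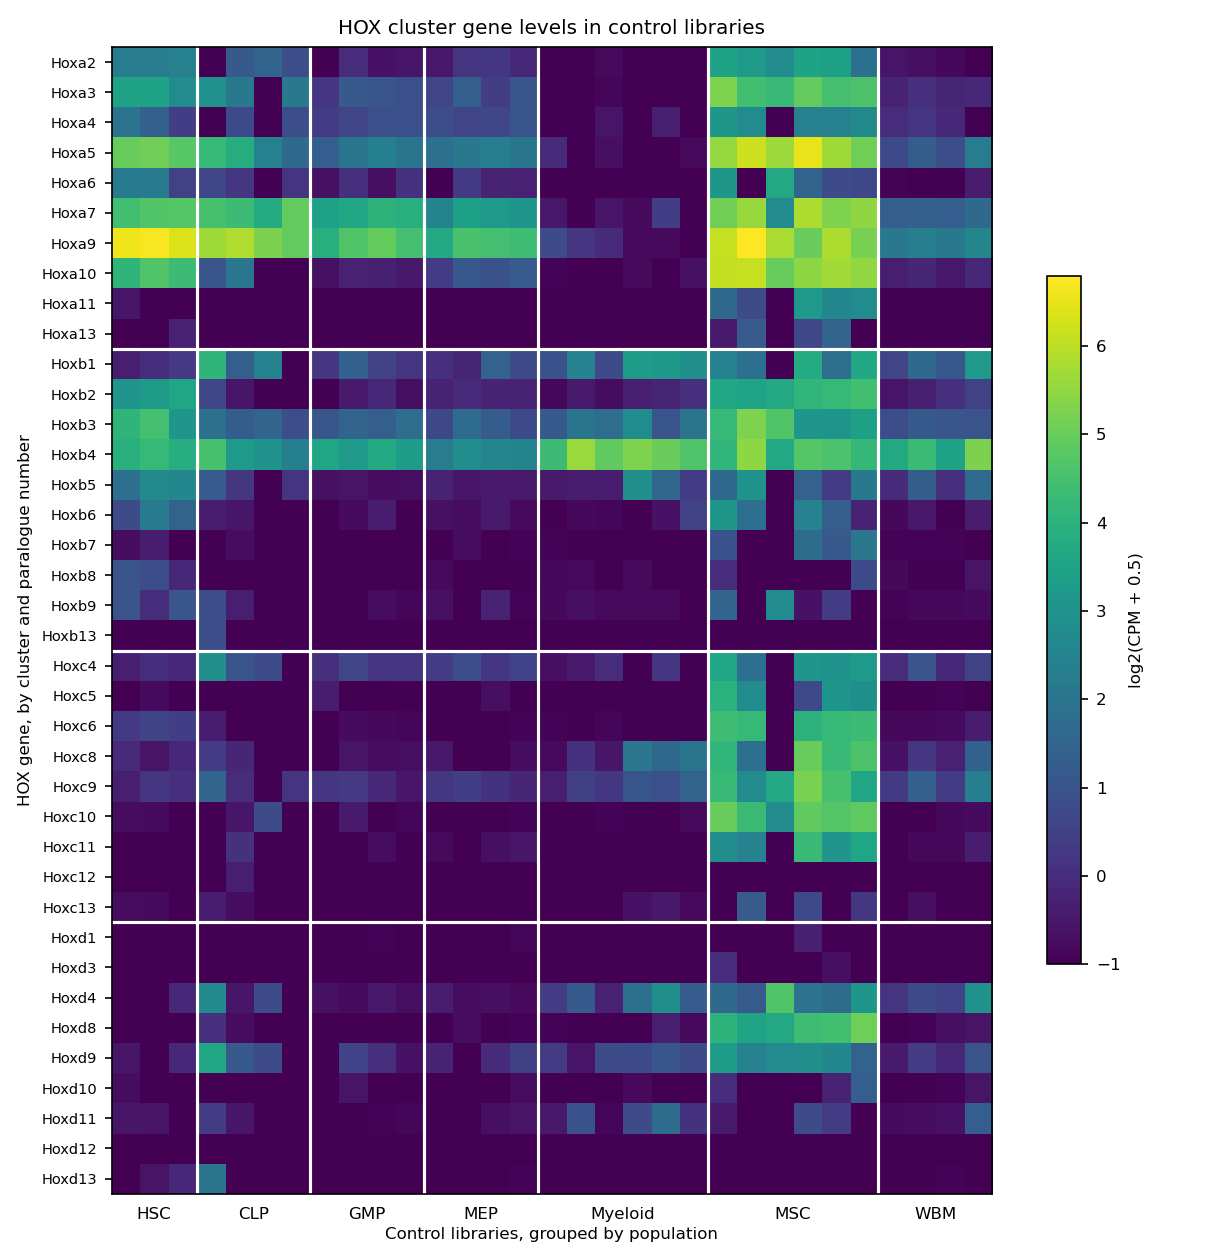
Level of HOX genes (rows, by cluster and paralogue number) in each control library (columns, grouped by population), as log2(CPM + 0.5). HOXA genes are bright in HSC and MSC and dark in all 6 myeloid libraries, Hoxb4 is present in every population, and the HOXC rows are bright in MSC, with pool 7 (321860 counts) darker.

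Summed over all members, the HOX level was 464 ± 88.6 CPM in MSC (SD, n = 6), 244 ± 30.5 in HSC (n = 3), 115 ± 49.3 in CLP (n = 4), 59.5 ± 12.3 in GMP (n = 4), 52.1 ± 17.3 in myeloid cells (n = 6), 47.9 ± 9.84 in MEP (n = 4) and 45.7 ± 27.4 in WBM (n = 4). The libraries of MSC, HSC and GMP did not overlap with each other, while GMP, MEP and myeloid cells did. HOXA made up most of the sum in the blood progenitors, with 190 ± 21.7 CPM for HSC, 83.2 ± 21.9 for CLP, 43.0 ± 10.9 for GMP and 36.2 ± 8.22 for MEP. In myeloid cells the HOXA sum was 0.889 ± 0.672 CPM (lowest 0.204, median 0.872, highest 1.97), while the HOXB sum was 43.2 ± 14.7, close to the 50.7 ± 9.23 of HSC. HOXC summed to 93.9 ± 45.0 CPM in MSC and to means of 1.53 to 4.27 in the other populations, and HOXD to 33.1 ± 10.0 in MSC against 0.615 to 6.95. These are bulk values, so fewer expressing cells and less RNA per cell cannot be told apart.

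Levels per kilobase of exon allow genes to be compared. On this scale HOXA took 76.4% of the HOX total in HSC, 65.7% to 70.5% in the other progenitors and 55.1% in MSC, and 1.86% in myeloid cells, where HOXB took 84.1%. WBM lay between, with 22.2% for HOXA and 62.3% for HOXB. The mean paralogue number, weighted by level per kilobase, was 6.47 ± 0.35 in MSC, 6.27 ± 0.38 in CLP, 6.22 ± 0.06 in HSC, 6.12 ± 0.13 in MEP and 6.03 ± 0.14 in GMP. It was 4.20 ± 0.13 in myeloid cells and 4.79 ± 0.07 in WBM. Genes numbered 9 to 13 made up 32.4% of the total per kilobase in HSC, 32.6% in MSC and 7.28% in myeloid cells. Single-gene maxima followed the same lines: Hoxa9 led in HSC with 17.0 CPM per kb, Hoxa5 led in MSC with 30.7 and Hoxb4 led in myeloid cells with 12.5.

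**Figure D2:**
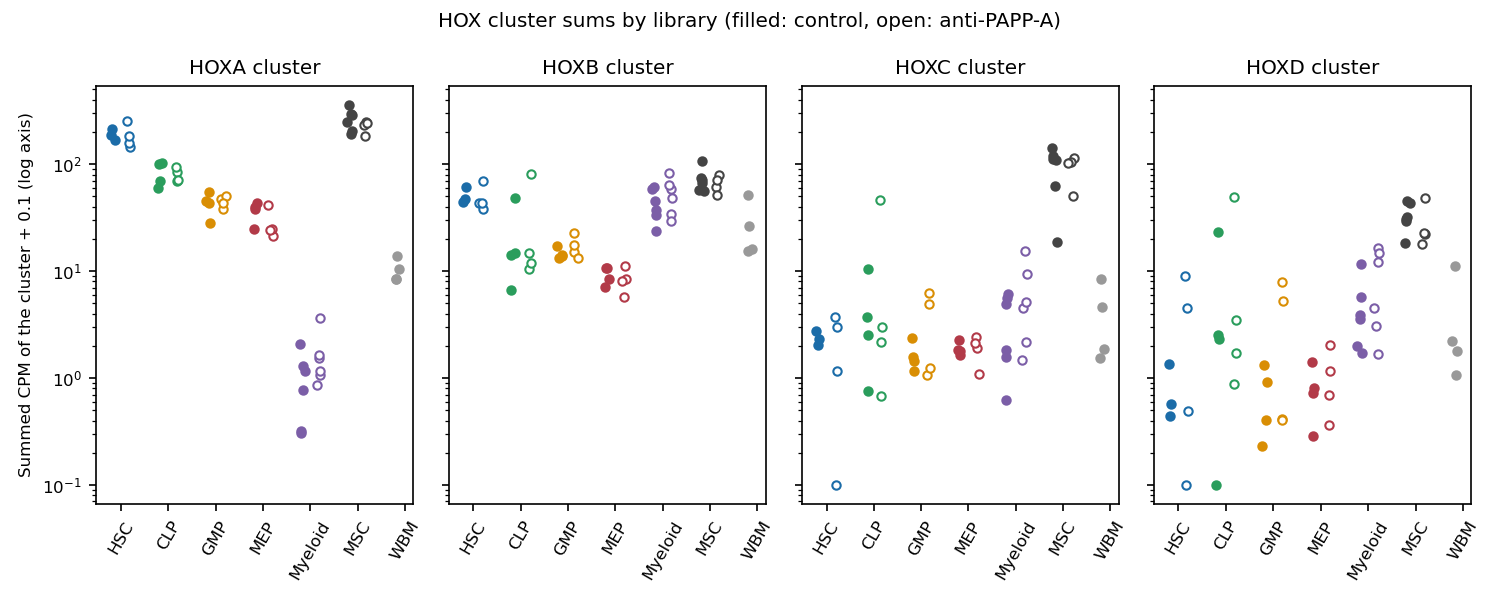
Summed CPM of each cluster in each library, plus 0.1 and on a log axis, by population (filled points control, open points anti-PAPP-A). The HOXA sum has a mean of 190 CPM in HSC and a highest value of 1.97 CPM in control myeloid cells, HOXB varies less, and the high CLP points in HOXC and HOXD are control pool 1 and treated pool 2.

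HSC stood above the other progenitors in both blood clusters. Of 16 members tested against the mean of CLP, GMP and MEP, 12 were higher and 0 lower (edgeR quasi-likelihood test with Benjamini-Hochberg adjustment at 0.05 over 16084 genes). Over all genes tested, 21.5% were called higher and 12.8% lower. The low-count filter could be passed on HSC libraries alone. Hoxb2, Hoxb5, Hoxb6 and Hoxb9 reached a mean of 1 CPM only in HSC among these populations, so a lower call was hardly possible for them. The 12 were Hoxa2, Hoxa3, Hoxa5, Hoxa7, Hoxa9, Hoxa10, Hoxb2, Hoxb3, Hoxb4, Hoxb5, Hoxb6 and Hoxb9. For 8 of the 16 tested, every HSC library lay above every library of the other 3 populations, as for 12.0% of all genes tested. These 8 include Hoxb2, Hoxb5 and Hoxb6, which could pass the filter on HSC alone and so add little to this count. DESeq2 called 2 members lower in HSC, Hoxb1 and Hoxc4, and 15 members had an unadjusted p under 0.05.

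Hoxa9, the partner of Meis1 in stem cell self-renewal, had the highest level. HSC pools 3, 5 and 7 gave 96.6, 106 and 83.1 CPM, CLP pools 1, 3, 5 and 7 gave 50.3, 58.1, 37.8 and 29.6, GMP pools 14.2, 25.1, 30.4 and 21.5, and MEP pools 12.6, 22.8, 21.5 and 20.3. These pool orders hold for the lists of values below. The HSC libraries were all above the CLP libraries, of which pool 7 fell within the range of GMP. The log2 difference of HSC from the other 3 was 1.80 ± 0.19 (SE, adjusted p = 1.71e-06). Hoxa10, a neighbour of Hoxa9 that also acts in stem and progenitor cells, showed the steepest step of HOXA: 16.7, 24.9 and 19.6 CPM in HSC against 1.59, 3.69, 0 and 0 in CLP, 0.134, 0.323, 0.311 and 0.228 in GMP, and 0.766, 1.70, 1.42 and 1.84 in MEP. Its HSC mean was 14.2 times that of the next population, with a log2 difference of 4.49 ± 0.36 (adjusted p = 1.37e-07).

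Hoxa5, known for its part in lung and axial patterning, gave 30.9, 34.1 and 26.6 CPM in HSC and 18.1, 14.0, 4.88 and 2.63 in CLP. GMP gave 2.00, 3.56, 4.67 and 3.60 and MEP 3.07, 3.96, 4.49 and 3.59, so that GMP and MEP overlapped fully (HSC log2 difference 2.53 ± 0.29, adjusted p = 5.15e-06). Hoxa7 had the smallest difference of the called HOXA genes: 21.2, 24.9 and 26.4 CPM in HSC, 22.3, 19.6, 13.4 and 29.6 in CLP, 10.4, 12.4, 15.7 and 14.7 in GMP, and 5.22, 10.4, 8.63 and 8.05 in MEP. HSC and CLP overlapped for Hoxa7 and both lay above MEP (HSC log2 difference 0.86 ± 0.20, adjusted p = 0.0034). Hoxa7 shares 20.4% of its exon bases with Hoxaas3 on the other strand, which had 4.72 ± 0.810 CPM in HSC. Libraries were strand-specific, but whether the counting used strand is not given in the sources used here.

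Hoxa3, which acts in thymus and pharyngeal development, had 10.6, 11.0 and 6.31 CPM in HSC and 7.18, 3.98, 0 and 3.95 in CLP, where pool 5 holds few counts. Its GMP levels were 0.668, 1.78, 1.56 and 1.37 and its MEP levels 1.05, 2.07, 0.828 and 1.56 (HSC log2 difference 2.20 ± 0.39, adjusted p = 3.45e-04). Hoxa2, which sets the identity of the second pharyngeal arch, had 4.47, 4.42 and 4.73 CPM in HSC against 0, 1.75, 2.44 and 1.32 in CLP and at most 0.710 in GMP and MEP (3.16 ± 0.52, adjusted p = 1.73e-04). Both share exon bases with the readthrough gene Gm28308 (8.0% of Hoxa3 and 15.0% of Hoxa2). Hoxa4 had 3.44, 2.13 and 0.841 CPM in HSC, 0.802, 1.05, 1.37 and 1.37 in GMP, and 1.32, 1.04, 1.06 and 1.52 in MEP, and the 3 populations overlapped. Hoxa6 had 4.09, 4.08 and 0.946 CPM in HSC and means under 1 CPM in CLP, GMP and MEP. It was not among the 16 tested, and Hoxa4 did not pass the test.

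Among the HOXB genes, Hoxb2 had 7.82, 9.01 and 11.5 CPM in HSC and at most 1.06 in any CLP, GMP or MEP library, the widest gap of the blood clusters (log2 difference 4.85 ± 0.45, adjusted p = 4.68e-07). Hoxb3 had 16.7, 21.8 and 7.78 CPM in HSC, 3.19, 1.94, 2.44 and 1.32 in CLP, 1.60, 2.35, 2.05 and 2.92 in GMP, and 1.11, 2.83, 1.89 and 1.19 in MEP (2.88 ± 0.31, adjusted p = 2.75e-06). The CLP, GMP and MEP libraries of Hoxb3 overlapped and all lay below HSC. Hoxb3os, on the other strand, covers 52.9% of the exon bases of Hoxb3 and 27.3% of those of Hoxb2, and had 1.47 ± 0.224 CPM in HSC. Hoxb5, whose reporter is used to mark long-term stem cells, had 3.07, 5.95 and 5.57 CPM in HSC, 1.86, 0.680, 0 and 0.659 in CLP, and at most 0.348 in GMP and MEP (3.93 ± 0.39, adjusted p = 9.23e-07). Hoxb6 gave 1.21, 4.00 and 2.31 CPM, Hoxb9 1.49, 0.510 and 1.58, and Hoxb8, used to immortalise myeloid progenitors, 1.49, 1.28 and 0.421. Of these, Hoxb6 (adjusted p = 4.37e-05) and Hoxb9 (adjusted p = 0.00378) passed the test and Hoxb8 was not tested. Hoxb9 did not reach the low-count filter without CLP pool 1, and its adjusted p was at most 0.0309 in the 9 alternatives that tested it.

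Hoxb4, a factor that expands stem cells when overexpressed, had the smallest difference of the 12. Its HSC levels were 14.9, 17.9 and 14.1 CPM, CLP 22.3, 8.64, 7.32 and 4.61, GMP 11.5, 8.65, 13.0 and 9.29, and MEP 4.32, 6.59, 5.32 and 5.25. The GMP libraries lay wholly below HSC and the MEP libraries wholly below both, while the CLP libraries overlapped all of them. The HSC difference of 0.83 ± 0.30 (adjusted p = 0.0433) was lost under other library scaling, without the shallow CLP library and when any 1 of the 3 HSC libraries was left out, with adjusted p up to 0.16.

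**Figure D3:**
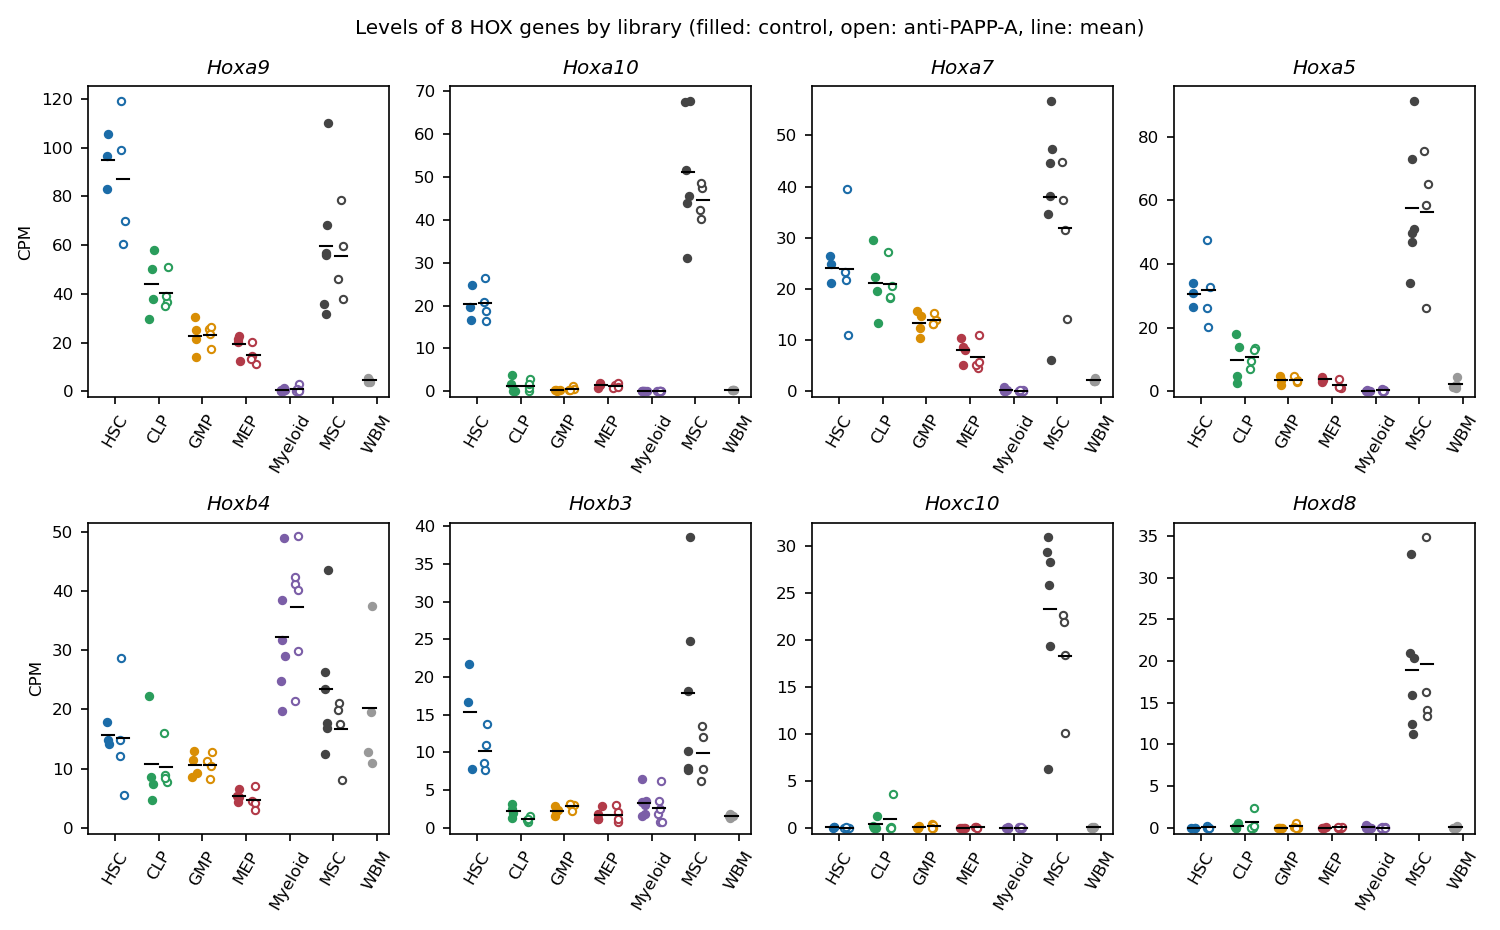
CPM of 8 HOX genes in each library by population (filled points control, open points anti-PAPP-A, black lines group means). The means of Hoxa9 and Hoxa7 step down from HSC over CLP and GMP to MEP, Hoxa5 is lowest in GMP and MEP among the progenitors, and all of these are at most 2.94 CPM (Hoxa9) in myeloid cells, Hoxa10 is high in HSC and MSC, Hoxb4 has its highest mean in myeloid cells, and Hoxc10 and Hoxd8 are seen in MSC.

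CLP lay above the mean of GMP and MEP in 11 of 16 members tested and below it in 0 (18.6% and 11.3% of all genes). The 11 were 6 HOXA genes (Hoxa2, Hoxa3, Hoxa5, Hoxa7, Hoxa9 and Hoxa10), Hoxb1, Hoxb5, Hoxb9, Hoxc4 and Hoxd9. DESeq2 also called 0 lower, and 12 members had an unadjusted p under 0.05. Hoxa9 (log2 difference 1.23 ± 0.20, adjusted p = 4.18e-04), Hoxa7 (1.20 ± 0.21, adjusted p = 7.60e-04), Hoxa5 (1.74 ± 0.33, adjusted p = 0.00139), Hoxa3 (1.77 ± 0.44, adjusted p = 0.00809) and Hoxb5 (2.54 ± 0.54, adjusted p = 0.00302) held under all alternatives. Hoxa2 (2.00 ± 0.68, adjusted p = 0.0369) was lost without pool 3 or without pool 5, and Hoxa10 (1.75 ± 0.48, adjusted p = 0.0129) without pool 3, whose 3.69 CPM is the highest of its CLP levels. For 0 of the 16 members did all CLP libraries lie above all GMP and MEP libraries, as they did for 3.82% of all genes.

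The other 4 rested on CLP pool 1, the control library with high olfactory receptor, osteoblast and myeloid marker counts. Hoxb1, a hindbrain gene, gave 16.5 CPM in pool 1 and 2.04, 4.88 and 0 in pools 3, 5 and 7. Hoxd9 gave 12.2 against 1.75, 1.22 and 0, Hoxc4 6.65 against 1.55, 1.22 and 0, and Hoxb9 1.33 against 0.291, 0 and 0. Hoxd4 (6.12 against 0.194, 1.22 and 0) and Hoxd13 (3.46 against 0, 0 and 0) were also highest there. Without pool 1, and equally with the mouse pool as a block, the count was 7 in place of 11. Hoxb1 (log2 difference 2.66 ± 0.70, adjusted p = 0.011) and Hoxc4 (1.84 ± 0.58, adjusted p = 0.0258) had an adjusted p of 0.423 and 0.577 without pool 1. Hoxd9 (3.44 ± 0.88, adjusted p = 0.00951) and Hoxb9 (2.91 ± 1.01, adjusted p = 0.0398) then did not reach the low-count filter. In treated CLP the same genes peaked in pool 2, with 47.2 CPM of Hoxb1, 37.6 of Hoxd9 and 19.7 of Hoxc4, against at most 3.27, 2.90 and 1.12 in the other 3 treated libraries. Pool 2 also held the high osteoblast, myeloid and MSC marker sums given above. The part that the olfactory receptor or marker counts play in these levels was not tested.

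Hoxb1 was also higher in libraries with a high olfactory receptor sum in other populations. Among treated GMP libraries, pools 4 and 6 had 808 and 747 CPM of olfactory receptor genes with 2.56 and 5.50 CPM of Hoxb1 and 5.56 and 3.66 of Hoxd9. Pools 2 and 8 had 165 and 139 CPM with 0.289 and 0.514 of Hoxb1 and 0.200 and 0.309 of Hoxd9. Treated HSC pools 2 and 4 had 551 and 835 CPM with 4.79 and 6.96 of Hoxb1, against 0 and 0.193 in pools 6 and 8 with 154 and 167 CPM. In control myeloid cells, Hoxb1 was 1.43, 4.98 and 1.16 CPM in batch B (olfactory receptor sums 382, 863 and 441) and 9.20, 8.41 and 6.86 in batch C (1570, 979 and 785). Hoxd9 had no single order with the sum in myeloid cells. It was 0.179 CPM at a sum of 863 and 1.24 at 441 in batch B controls. In batch C it was 0.242 at 2125 in a treated library against 1.58 at 979 in a control. Its highest myeloid levels, however, stood at the highest sum of each batch. These were 3.44 CPM at 1094 in treated pool 14 (batch B) and 2.32 at 2425 in treated pool 16 (batch C).

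**Figure D4:**
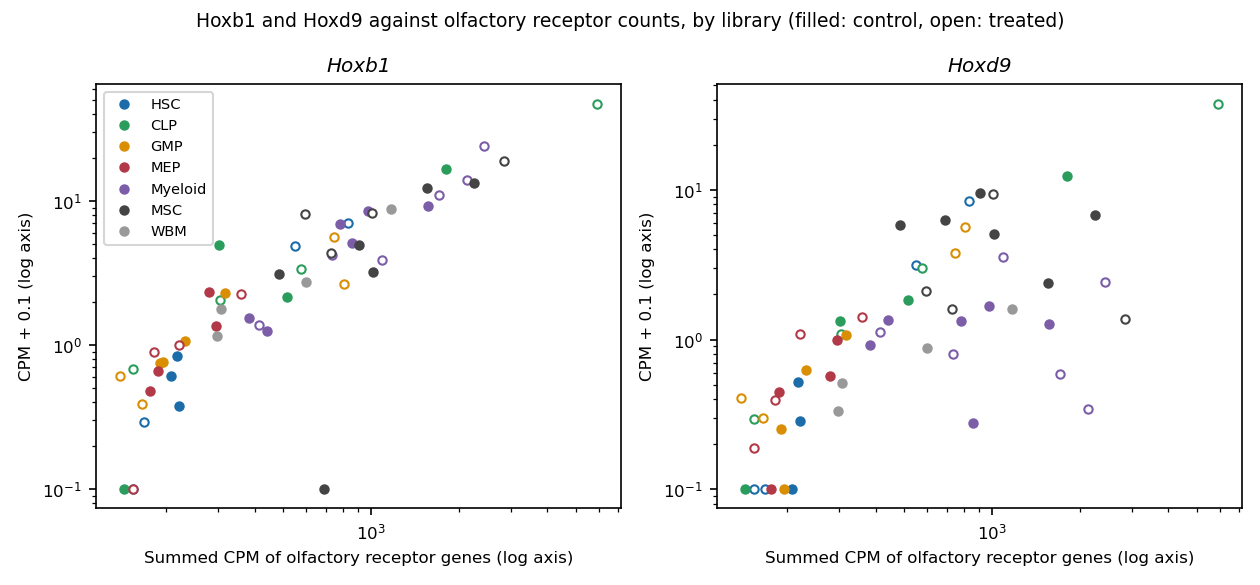
Hoxb1 (left) and Hoxd9 (right), CPM + 0.1 on a log axis, against the summed CPM of 1111 olfactory receptor genes (log axis), 1 point per library, coloured by population (filled control, open treated). Hoxb1 tends to be higher at higher sums, up to 47.2 CPM at 5929 CPM in treated CLP pool 2. Hoxd9 shows more scatter, with myeloid libraries from 0.179 to 3.44 CPM.

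GMP differed from the mean of CLP and MEP in 3 of 16 members, all lower: Hoxa10, Hoxb5 and Hoxa5. Over all genes, 10.4% were higher and 11.4% lower. Hoxa10 had 0.249 ± 0.0879 CPM in GMP and 1.43 ± 0.477 in MEP, with no overlap between them (log2 difference -2.73 ± 0.52, adjusted p = 9.05e-04). Hoxb5 had 0.126 ± 0.0292 CPM in GMP (log2 difference -2.08 ± 0.55, adjusted p = 0.0111). Hoxa5 (-0.98 ± 0.34, adjusted p = 0.0488) was lost under 7 of 11 alternatives. DESeq2 called 0 members higher and 5 lower, and 6 members had an unadjusted p under 0.05. Without CLP pool 1, Hoxb4 was called higher in GMP (log2 difference 0.77). Hoxb1, which did not pass, had 0.668, 2.18, 0.965 and 0.645 CPM in GMP and 0.557, 0.377, 2.25 and 1.26 in MEP, with overlap between them.

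MEP differed from the mean of CLP and GMP in 3 of 16 members, again all lower: Hoxa7 (-1.10 ± 0.22, adjusted p = 9.15e-04), Hoxa9 (-0.76 ± 0.21, adjusted p = 0.0107) and Hoxb4 (-1.08 ± 0.32, adjusted p = 0.0185). Over all genes, 16.1% were higher and 13.7% lower. All 4 MEP libraries lay below all CLP and GMP libraries for Hoxa7, 1 of 16 members tested against 5.27% of all genes, but 1 of 4 did so for Hoxa9 and for Hoxb4. DESeq2 called 0 higher and 5 lower, and 5 members had an unadjusted p under 0.05. The count fell to 1 without MEP pool 1, when Hoxa9 (adjusted p = 0.0513) and Hoxb4 (adjusted p = 0.0669) were lost. Hoxb4 was also lost without MEP pool 7 (adjusted p = 0.0626), its log2 difference being -0.99 without pool 1 and -1.03 without pool 7.

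Myeloid cells had almost no HOXA RNA and the highest mean of Hoxb4, overlapping MSC. In the fit of all sorted control populations with a batch term, 4 of 30 members tested were lower in myeloid cells than in GMP (Hoxa3, Hoxa5, Hoxa7 and Hoxa9) and 5 higher (Hoxb3, Hoxb4, Hoxb5, Hoxc8 and Hoxd4). Over all 19721 genes, 17.6% were lower and 14.8% higher, so both counts are near the background. GMP and myeloid cells share no batch: GMP libraries are of batch A and myeloid libraries of B and C. Batch B held myeloid cells alone, so this fit takes the myeloid level from batch C and ties it to GMP through MSC. A second fit with the myeloid libraries of batch B and no batch term, added after the values were seen, is given beside it.

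Hoxa9 had 0.423 ± 0.488 CPM in the 6 myeloid libraries (1.26, 0.675 and 0.452 in batch B, 0.0736, 0.0751 and 0 in batch C) against 22.8 ± 6.82 in GMP. Every myeloid library was below every GMP library (log2 difference -7.71 ± 0.73, adjusted p = 2.16e-08, and -4.89 with batch B alone). Hoxa7 had 0.217 ± 0.312 CPM (highest 0.826) against 13.3 ± 2.38 in GMP (-5.92 ± 0.94, adjusted p = 2.48e-05, and -6.57 with batch B). Hoxa5 had 0.109 ± 0.180 CPM (highest 0.461) against 3.46 ± 1.10 (-6.86 ± 1.26, adjusted p = 1.47e-04, and -4.14 with batch B). Hoxa3 had 4 counts in 1 of the 6 libraries and 0 in the other 5, against 1.34 ± 0.480 CPM in GMP, a ratio of 0.00624 between the means. None of these 4 overlapped GMP. Of the 30 members tested, 6 lay wholly below GMP, which is near the 20.4% of all genes that did. With batch B alone, 9 members were lower, among them the same 4 and Hoxa10, where 3995 of 18817 genes were lower.

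Hoxb4 was the leading HOX gene of myeloid cells. It had 19.7, 49.0 and 29.0 CPM in batch B and 38.6, 31.7 and 24.8 in batch C, all above the 8.65 to 13.0 of GMP (log2 difference 1.83 ± 0.60, adjusted p = 0.0211, and 1.52 with batch B, adjusted p = 0.00311). This call was lost without myeloid pool 15 (adjusted p = 0.0751) or pool 17 (0.0544) and with no filter on low counts (0.123). Whole marrow, in which myeloid markers summed to 49749 CPM or more, gave 12.9, 19.5, 10.9 and 37.5 CPM of Hoxb4, the last in batch C.

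The other 4 higher calls came from the fit that takes the myeloid level from batch C and ties it to GMP through MSC. Hoxd4 had 0.800, 1.79 and 0.327 CPM in batch B and 3.16, 6.91 and 1.90 in batch C, against at most 0.218 in GMP. Hoxc8, a thoracic patterning gene, had 0.0769, 0.596 and 0.188 in batch B and 3.68, 2.55 and 3.60 in batch C. Hoxb5 had 0.246, 0.278 and 0.276 in batch B and 6.77, 2.48 and 0.814 in batch C, and Hoxb3 1.81, 3.45 and 2.96 against 6.47, 1.58 and 3.53. With batch B alone, none of the 4 passed: log2 difference 2.64 for Hoxd4 (adjusted p = 0.0655), 1.36 for Hoxc8 (0.256), 1.02 for Hoxb5 (0.298) and 0.20 for Hoxb3 (0.793). The Hoxb3 levels of the 2 batches overlapped. With all myeloid libraries and no batch term, the Hoxb3 difference was 0.56 (edgeR adjusted p = 0.377). Hoxc9 (lowest 0.292, median 1.12, highest 2.31 CPM), Hoxd9 (0.179, 1.20 and 1.58) and Hoxd11 (0.0502, 0.931 and 2.85) also reached a mean of 1 CPM in myeloid cells.

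The myeloid libraries of batch C carried MSC markers along with the olfactory receptor counts. Cxcl12, a chemokine of marrow stroma, was 37.4 CPM (9.23 to 66.1) in batch C and 0.482 in batch B, which is 0.0955% and 0.00123% of its MSC level. Some HOX genes stood at a larger share of their MSC level in the same batch C libraries, with 20.9% for Hoxc8, 54.7% for Hoxd4, 118% for Hoxb5 and 134% for Hoxb1. Hoxd8 and Hoxc10, which had a mean of 19.0 and 23.3 CPM in MSC, were at 0.300 and 0.0679 CPM or less in every control myeloid library. The part of stromal RNA in the HOX values of these myeloid libraries was not tested.

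MSC had the broadest HOX expression. Against the mean of the other 5 sorted populations, 27 of 30 members tested were higher and 0 lower, where 29.2% of all genes were higher and 21.2% lower. The 27 were 10 HOXA, 7 HOXB, 7 HOXC and 3 HOXD genes. The low-count filter could be passed on MSC libraries alone. For the 8 members at 1 CPM or more in MSC alone, a lower call was hardly possible, so they add little to this count. The 3 tested members that did not pass were Hoxb1 (log2 difference 1.14 ± 0.65), Hoxb8 (adjusted p = 0.0675) and Hoxd11 (adjusted p = 0.911). DESeq2 called 26 higher and 0 lower, and 28 members had an unadjusted p under 0.05, all higher in MSC. In a fit of batch A libraries alone, MSC was set against HSC, CLP, GMP and MEP, without myeloid cells. The count of higher members was then 22, where 4676 of 17410 genes were higher. Where a reference population held 3 counts or fewer of a gene, its levels and adjusted p are given without a fold.

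HOXA genes were high throughout, given here as the lowest, median and highest of 6 control libraries. Hoxa9 had 31.7, 56.3 and 110 CPM (log2 difference 2.83 ± 0.24, adjusted p = 1.01e-10), overlapping HSC. Its mean was 59.7 CPM in MSC and 95.1 in HSC, and the reference mean includes myeloid cells at 0.423 CPM. Under the alternatives its log2 difference ran from 0.96 to 2.99. Hoxa5 had 34.0, 50.3 and 91.3 CPM (4.44 ± 0.39, adjusted p = 1.45e-10) and Hoxa10 31.04, 48.6 and 67.9 (5.76 ± 0.33, adjusted p = 1.48e-14). Every MSC library exceeded every blood library for Hoxa10, and 5 of 6 did for Hoxa5. Hoxa7 had 6.21, 41.4 and 56.8 CPM, the lowest being the single count of pool 7, and Hoxa3 had 18.6, 23.1 and 38.2, above all blood libraries. Their log2 differences were 2.38 ± 0.36 (adjusted p = 3.18e-06) and 4.95 ± 0.43 (adjusted p = 2.89e-10). Myeloid cells, with a HOXA sum of 0.889 CPM, enter the reference mean of every HOXA gene. The lowest log2 difference under the alternatives was 2.62 for Hoxa5, 1.00 for Hoxa7 and 3.04 for Hoxa3. Their MSC means were 1.89, 1.57 and 2.76 times that of the highest reference population. Hoxa2 had 3.07, 9.46 and 11.0 CPM (4.74 ± 0.63, adjusted p = 4.99e-07) and Hoxa4 0, 5.47 and 8.22 (2.98 ± 0.66, adjusted p = 4.05e-04). Hoxa6 had 0, 1.76 and 12.4 CPM (adjusted p = 1.36e-04, lost without MSC pool 3). Hoxa11, a gene of the forearm and lower leg skeleton, had 0, 4.22 and 8.76 (adjusted p = 3.09e-06, but 0.132 by DESeq2). Hoxa11 was at 0 in every control CLP, GMP, MEP and myeloid library. It shares 35.0% of its exon bases with Hoxa11os on the other strand, which had 4.805 ± 3.36 CPM in MSC.

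In HOXB, the leading genes of MSC were those of HSC. Hoxb4 had 12.4, 20.6 and 43.6 CPM (log2 difference 1.04 ± 0.29, adjusted p = 0.00392, lost without MSC pool 5), Hoxb3 7.67, 14.2 and 38.6 (2.64 ± 0.33, adjusted p = 1.03e-07) and Hoxb2 11.2, 14.7 and 21.2 (4.28 ± 0.41, adjusted p = 7.96e-10). Hoxb3 and Hoxb4 overlapped blood populations, and 5 of 6 MSC libraries exceeded all blood libraries for Hoxb2. The mean of Hoxb4 was 23.4 CPM in MSC, below the 32.2 of myeloid cells. Hoxb5 had 0, 2.43 and 7.47 CPM (2.10 ± 0.53, adjusted p = 0.00167, lost without MSC pool 5), with a mean of 2.84 against 4.87 in HSC. Hoxb9 had 0, 0.460 and 6.21 CPM (2.89 ± 0.94, adjusted p = 0.0113, lost without pool 3), the highest being a single count of pool 7. Hoxb6 had 0, 2.59 and 8.22 CPM (adjusted p = 5.42e-05) and Hoxb7 0, 1.61 and 3.78 (adjusted p = 6.37e-05), and the difference of Hoxb7 turned to -0.21 on the log2 scale without pool 3. Hoxb1, which did not pass, had 0, 3.97 and 13.3 CPM.

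HOXC set MSC apart most clearly. Hoxc10, a gene of the hindlimb level, had 6.21, 27.1 and 30.9 CPM, the lowest being a single count of pool 7. All 6 libraries exceeded all blood libraries (adjusted p = 8.93e-14), whose highest population mean was 0.354. Hoxc9 had 6.23, 15.4 and 36.7 CPM and was also separate (log2 difference 4.20 ± 0.41, adjusted p = 1.22e-09). Hoxc6 had 0, 18.1 and 20.3 CPM (adjusted p = 8.02e-13), Hoxc8 0, 17.9 and 31.4 (4.95 ± 0.49, adjusted p = 1.88e-09), and Hoxc11 0, 7.16 and 18.8 (adjusted p = 1.02e-08). Hoxc5 had 0, 6.51 and 15.2 CPM (adjusted p = 4.66e-08). Hoxc4, which acts in activated B cells, had 0, 7.62 and 11.8 (3.25 ± 0.60, adjusted p = 4.68e-05, lost without pool 3). Each of these zeros was the shallow MSC pool 7. Without it, the lowest levels were 15.5 CPM for Hoxc6, 3.11 for Hoxc8, 4.98 for Hoxc11, 1.14 for Hoxc5 and 3.11 for Hoxc4. Hoxc5 and Hoxc10 share 166 exon bases.

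In HOXD, Hoxd8 had 11.2, 18.2 and 32.8 CPM in MSC (adjusted p = 1.34e-11) and at most 0.532 in any control library of the other 6 populations. Hoxd9 had 2.30, 5.96 and 9.43 CPM in MSC (log2 difference 3.17 ± 0.70, adjusted p = 3.78e-04). Hoxd4 had 1.87, 3.16 and 24.8 CPM (3.67 ± 0.84, adjusted p = 5.81e-04), the highest in pool 7 from few counts. Hoxd4 shares 39.1% of its exon bases with the readthrough gene Gm28230, so counts may be split between them.

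Whole marrow, a mixture, had 9 members at 1 CPM or more. Hoxb4 led, followed by Hoxa9 (3.84, 4.57, 3.97 and 5.42 CPM in pools 1, 5, 7 and 15) and Hoxb1 (1.05, 2.66, 1.68 and 8.68). Hoxa7 had 2.01, 2.10, 2.00 and 2.67 CPM, Hoxa5 1.13, 1.95, 1.32 and 4.42, and Hoxb3 1.28, 1.79, 1.59 and 1.502. Hoxd4 had 0.640, 1.21, 0.971 and 7.34, Hoxc9 0.756, 2.10, 0.794 and 4.59, and Hoxb5 0.465, 1.98, 0.559 and 2.84. For 8 of these 9 genes, all but Hoxb3, the highest library was pool 15, the only WBM library of batch C, whose olfactory receptor sum of 1172 CPM and Cxcl12 level of 83.1 CPM were also the highest.

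The remaining 9 members stayed under a mean of 1 CPM in all 7 control populations when all libraries were used: Hoxa13, Hoxb13, Hoxc12, Hoxc13, Hoxd1, Hoxd3, Hoxd10, Hoxd12 and Hoxd13. This group holds every gene numbered 12 or 13, which act at the posterior end of the body and in the digits. Hoxb13, a prostate gene, had counts in 1 of 57 libraries (CLP control pool 1, 1.33 CPM), and Hoxd12 in 1 (myeloid treated pool 14, 0.0531 CPM). Hoxa13 reached 2.30 CPM and Hoxd10 2.01 CPM in single MSC controls, and Hoxc13 3.56 CPM in myeloid treated pool 16. Hoxd3, which shares 53.1% of its exon bases with Gm28230, had at most 0.483 CPM. Without the libraries under 1000000 counts, Hoxa13 reached 1 CPM in MSC and Hoxd13 in CLP.

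No member passed the test for a response to the antibody in any population. edgeR tested 30 members in MSC, 14 in HSC, 11 in myeloid cells, 10 in GMP, 8 in MEP and 6 in CLP, and called 0 in each. Over all genes, 0.0313% were called for MSC, 0.0069% for HSC, and 0% for each of the other 4. The unadjusted p was under 0.05 for 1 member in MSC, 1 in MEP and 0 in the other 4 populations. DESeq2 also called 0 members in all 6. A miss of the threshold does not show that levels were equal, and standard errors on the log2 scale ran up to 2.11 (Hoxb9 in MSC).

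In MSC, the smallest p belonged to Hoxa3, at 38.2, 21.2 and 18.6 CPM in controls of batch A against 14.1 in the treated library, and 29.6, 22.2 and 24.0 against 19.8, 11.2 and 15.2 in batch C. Treated libraries were lower within both batches (log2 difference -0.78 ± 0.36, unadjusted p = 0.0406 and adjusted p = 0.999 by the edgeR quasi-likelihood test across all genes). In batch A this order rests on few counts. The only treated library there, pool 8, had 499300 counts in all, and the control at 18.6 CPM, pool 7, had 321860. In batch C the osteoblast markers also differed, at 4261, 4164 and 4785 CPM in treated MSC and 8043, 9724 and 9192 in controls, without overlap, while the treated library of batch A had 13088 against 7613 to 25908. The part of these markers in the MSC values was not tested. Hoxc10 (-0.56 ± 0.36) and Hoxa7 (-0.50 ± 0.33) had the next smallest p. The members with the highest means in control MSC differed by less than their standard errors: Hoxa9 0.13 ± 0.26, Hoxa10 -0.17 ± 0.24 and Hoxa5 -0.12 ± 0.31. This does not show that their levels were equal. Of the 30 members tested in MSC, 8 had a positive log2 difference and 22 a negative one.

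In HSC, Hoxa6 had the smallest p, with 4.09, 4.08 and 0.946 CPM in controls and 0.192, 0, 0 and 2.22 in treated libraries (log2 difference -1.65 ± 0.90, adjusted p = 0.653 by edgeR). Of these zeros, pool 6 had 107412 counts in all. Hoxb3 was 7.66, 8.63, 11.0 and 13.7 CPM in treated HSC against 16.7, 21.8 and 7.78 in controls (-0.48 ± 0.35), and Hoxb5 differed by 0.51 ± 0.47. Hoxa9 (0.08 ± 0.21) and Hoxa10 (0.21 ± 0.26) showed the smallest errors. Without the filter on low counts, Hoxd9 was called in HSC, at 3.07, 8.35, 0 and 0 CPM in treated pools 2, 4, 6 and 8, of which 2 and 4 are the pools with high olfactory receptor counts.

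In MEP, Hoxa5 was 3.07, 3.96, 4.49 and 3.59 CPM in controls and 1.15, 3.99, 1.20 and 1.28 in treated libraries, so that 3 of 4 treated libraries lay below all controls (log2 difference -0.92 ± 0.41, unadjusted p = 0.0486, adjusted p = 0.999 by edgeR). Hoxa9 (-0.34 ± 0.23) and Hoxa7 (-0.23 ± 0.31) followed. In CLP, Hoxa9 (-0.21 ± 0.24), Hoxb1 (1.14 ± 1.51) and Hoxb4 (-0.17 ± 0.57) had the smallest p. The Hoxb1 difference became -1.84 without treated pool 2. In GMP they were Hoxc4 (1.06 ± 0.60), Hoxb3 (0.38 ± 0.26) and Hoxb1 (1.03 ± 0.84), with Hoxc4 at 2.71 and 2.19 CPM in the treated pools 4 and 6 that had high olfactory receptor counts and 0.423 and 0.823 in pools 2 and 8.

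In myeloid cells, Hoxb1 (0.61 ± 0.46), Hoxc4 (1.26 ± 1.15) and Hoxc8 (0.61 ± 0.62) had the smallest p. Within batch C, Hoxb1 was 23.9, 10.9 and 13.9 CPM in treated libraries and 9.20, 8.41 and 6.86 in controls, without overlap, beside olfactory receptor sums of 2425, 1704 and 2125 against 1570, 979 and 785. Within batch B it was 4.10, 1.27 and 3.81 against 1.43, 4.98 and 1.16, which overlap. MSC markers separated the same batch C libraries, with 146, 103 and 152 CPM in treated and 83.1, 11.1 and 42.9 in control libraries, and so did osteoblast markers, with 70.3, 42.0 and 52.99 against 41.4, 15.4 and 22.6. The part of the olfactory receptor or marker counts in the Hoxb1 values was not tested. Hoxb4 was 32.2 ± 10.4 CPM in control and 37.4 ± 9.97 in treated myeloid cells (log2 difference 0.20 ± 0.27).

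No difference of the response between populations passed the test for any member: in a joint edgeR fit of all sorted libraries, 0 members were called, where 0.0511% of 21525 genes were. The smallest p-values were those of Hoxc11 (unadjusted p = 0.0199, adjusted p = 0.573), Hoxc6 (0.0312, adjusted p = 0.666) and Hoxb2 (0.118, adjusted p = 0.962), and 2 were under 0.05 unadjusted. A limma voom fit that treated each mouse pool as a block called 0 as well.

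**Figure D5:**
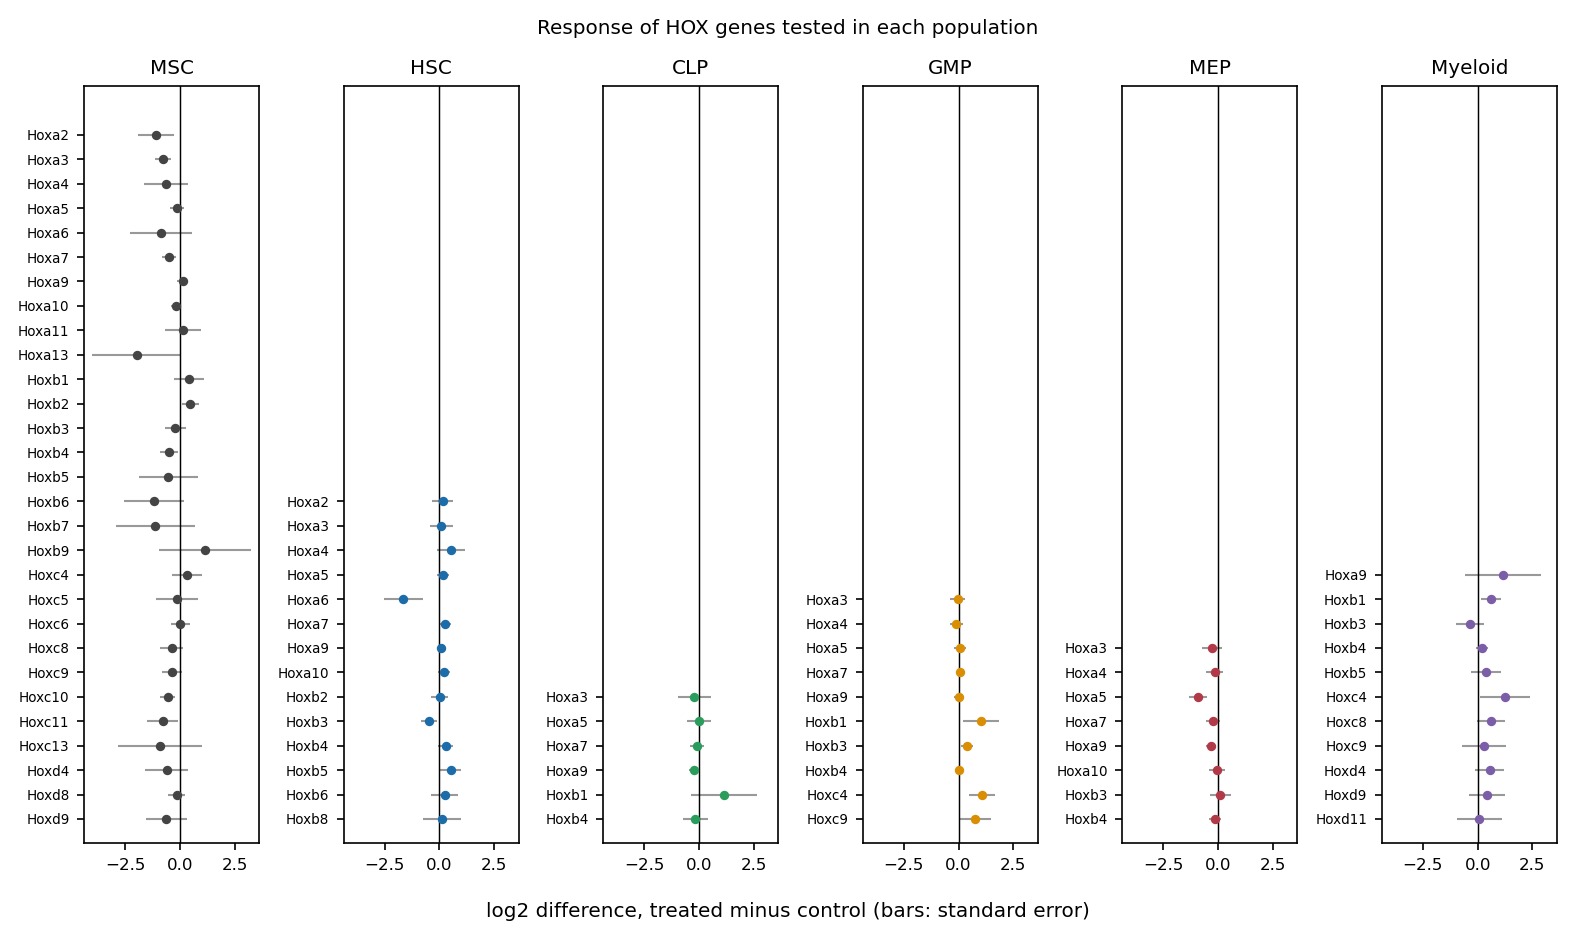
Log2 difference between treated and control libraries, with its standard error, for HOX genes tested in each sorted population. Points lie on both sides of 0, the widest standard error is that of Hoxb9 in MSC (2.11), and no value passed the adjusted threshold.

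The partners and regulators of the HOX genes were taken as lists chosen with earlier results of these data known. The low-count filter could be passed on the libraries of 1 population alone. A list gene near 0 in the other populations could then hardly be called lower in that population. Their counts stand beside the shares of all genes called higher and lower in the same comparison: 21.5% and 12.8% for HSC, 18.6% and 11.3% for CLP, 10.4% and 11.4% for GMP, 16.1% and 13.7% for MEP, 29.2% and 21.2% for MSC, and 14.8% and 17.6% for myeloid cells against GMP. Of 9 tested TALE cofactors, 4 (44.4%) were higher in HSC than in the other 3 progenitors and 1 (11.1%) lower, with a median log2 difference of 0.23 against 0.01 over all genes. Meis1 had 297 ± 48.03 CPM in HSC and 34.6 in the other 3 (log2 difference 3.28 ± 0.28, adjusted p = 2.44e-07). Pbx3 was also higher (2.02 ± 0.21), and Tgif1, a TALE repressor, lower (-0.85 ± 0.14). In MSC, 3 of 11 were higher (27.3%, near the share of all genes) and 1 lower (median -0.18 against 0.12). The 3 were Meis3 (64.2 ± 16.4 CPM, log2 difference 4.81 ± 0.25), Pknox2 (39.9 ± 18.9 CPM against 0.609) and Meis2 (23.5 ± 8.90, 6.30 ± 0.57), with Pbx4 lower (-4.16 ± 1.10). Of the 9, CLP had 2 higher (22.2%) and 0 lower, GMP 0 and 4 (44.4%), and MEP 5 (55.6%) and 1 (11.1%), and of the 11, myeloid cells had 4 (36.4%) and 2 (18.2%).

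Of 20 trithorax and MLL complex genes, 6 (30%) were higher and 2 (10%) lower in HSC, near the 21.5% and 12.8% of all genes (median 0.05 against 0.01). Mllt3, a partner of MLL in elongation complexes that is high in stem cells, had 104 ± 9.45 CPM in HSC against 23.4 (2.71 ± 0.22, adjusted p = 1.47e-07), and Kmt2a itself 184.5 ± 52.9 against 99.5 (0.87 ± 0.22, adjusted p = 0.00549). Aff4 was higher (0.83 ± 0.18) and Aff1 lower (-0.79 ± 0.19). In MSC, 2 (10%) were higher and 6 (30%) lower, where 29.2% and 21.2% of all genes were (median -0.39 against 0.12), among them Mllt6 (1.67 ± 0.19), Wdr5 (-1.79 ± 0.23), Psip1 (-1.11 ± 0.17) and Dot1l (-1.38 ± 0.25). CLP had 1 higher (5%) and 4 lower (20%), GMP 2 (10%) and 4 (20%), MEP 6 (30%) and 1 (5%), and myeloid cells 1 (5%) and 6 (30%).

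Of 29 Polycomb genes, 9 (31%) were higher in HSC and 3 (10.3%) lower, against 21.5% and 12.8% of all genes (median -0.01 against 0.01). The 9 were led by Phc1 (1.40 ± 0.14), Cbx7 (1.82 ± 0.21), Cbx6 (1.25 ± 0.18) and Pcgf2 (1.39 ± 0.21). In MSC, 11 (37.9%) were higher and 11 (37.9%) lower, where 29.2% and 21.2% of all genes were (median 0.10 against 0.12). Ezh2, the methyltransferase of the repressive complex, had 34.3 ± 3.39 CPM in MSC against 176 in the other populations (-2.23 ± 0.17, adjusted p = 4.14e-12), its core partner Suz12 was 43.55 ± 12.1 against 165 (-1.85 ± 0.20), and Rbbp4 was lower (-1.19 ± 0.16) and Phf1 higher (1.97 ± 0.19). CLP had 4 higher (13.8%) and 1 lower (3.45%), GMP 4 (13.8%) and 5 (17.2%), MEP 4 (13.8%) and 3 (10.3%), and myeloid cells 3 (10.3%) and 7 (24.1%), all within 10 percentage points of the shares of all genes.

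Retinoic acid and the caudal genes induce HOX clusters in the embryo. Of 16 such genes, 7 were tested in HSC, where 5 (71.4%) were higher and 1 (14.3%) lower, against 21.5% and 12.8% of all genes (median 1.33 against 0.01). Aldh1a1, which makes retinoic acid, had 169 ± 45.0 CPM in HSC against 34.7 (4.58 ± 0.27, adjusted p = 6.33e-09), and Cyp26b1, which degrades it, 7.88 ± 3.77 against 0.117 (5.92 ± 0.49). The receptors Rarb (3.79 ± 0.43) and Rxra (1.10 ± 0.25) were higher as well. The low-count filter could be passed on HSC libraries alone, so a lower call was hardly possible for Cyp26b1, which adds little to this count. In MSC, 7 of 10 (70%) were higher and 1 (10%) lower, where 29.2% and 21.2% of all genes were (median 2.99 against 0.12), led by another enzyme of retinoic acid synthesis, Aldh1a2 (94.9 ± 43.2 CPM against 0.0868), and by Rxra (2.88 ± 0.22), Rarg (3.09 ± 0.26) and Rara (1.69 ± 0.27). For Aldh1a2 a lower call in MSC was hardly possible in the same way, and it adds little to the MSC count. Of 7 tested, CLP had 1 higher and 1 lower (14.3% each), GMP 1 (14.3%) and 3 (42.9%), and MEP 2 (28.6%) and 0. Of 10, myeloid cells had 4 (40%) and 2 (20%). No gene of the 4 lists was called in any of the 6 treatment comparisons.

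Between the first and last member of the clusters lie 46 other annotated genes, all in the table, of which 8 reached 1 CPM in MSC, 5 in HSC and 10 in some population. In MSC these included Hoxa11os and Hotairm1, an RNA read from the start of the HOXA cluster, at 4.155 ± 2.80 CPM, against means of at most 0.285 CPM in other populations for Hotairm1. Hoxaas3 was the only one of the 46 at 1 CPM or more in all 7 populations, from 1.10 ± 0.986 CPM in myeloid cells to 4.72 ± 0.810 in HSC.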

How the data were processed

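RNA of 57 bone marrow libraries was counted per gene. The authors deposited a table of estimated counts per library and gene, whole numbers on 7385832 lines, from Salmon (version not given in the sources used here) after FastQC 0.11.5 with the mm10 build, per the submitters' processing notes. Repeated lines of a gene in a library were identical and counted once. Libraries were strand-specific, per the labels' protocols. Counts per 1000000 (CPM) were computed from those counts with TMM library sizes over all 57 libraries, and divided by GENCODE M21 exon length for levels per kilobase. Tests used edgeR 4.0.16 (R 4.3.3): quasi-likelihood fits, filterByExpr and Benjamini-Hochberg adjustment at 0.05 over all genes tested. The HSC, CLP, GMP and MEP comparisons were fitted on their control libraries, the MSC and myeloid comparisons on 6 populations with a batch term, and treatment within each population, with batch for MSC and myeloid cells. DESeq2 1.42.0, RLE scaling, no filter, left-out libraries and a pool block (limma 3.58.1 for the response difference) were alternatives. The tests were tried on simulated data. Same-numbered pools are the same mice by the labels. Their deviations correlated by 0.08 on average (46 pairs, 7949 genes), against -0.02 for 137 other pairs. Named are members at 1 CPM or more in a control population, called members, and the 3 smallest p-values of each treatment comparison. Some results are not reported here. The members and lists were chosen with earlier results of these data known.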

Additional observations from a re-analysis of the deposited data

Results flagged for a closer look

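Of 206 sets of 4 or 6 libraries of a population and treatment, 32 had a highest or lowest library far from the others by Dixon's test at 95%. For normally distributed values, chance gives this for about 1 set in 20. The sets are not independent, because cluster sums contain members that were also tested, and normality was not tested. In 26 of the 32 the library was the highest. Treated CLP pool 2, with 5929 CPM of olfactory receptor genes, was highest for Hoxb1 (47.21 CPM), Hoxb4 (16.07), Hoxb5 (8.840), Hoxc4 (19.69), Hoxc9 (9.442), Hoxc11 (7.634), Hoxd4 (3.415) and Hoxd9 (37.57), and for the sums of HOXB (80.56), HOXC (46.61) and HOXD (48.82). Control CLP pool 1 was highest for Hoxd9 (12.23 CPM) and the HOXD sum (23.13).

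In HSC, the treated pool 6 was lowest for Hoxb6 (0 CPM, in a library of 107412 counts) and pool 4 highest for the HOXB sum (69.87). Treated GMP pool 8 was lowest for Hoxb3 (2.263 CPM) and treated MEP pool 4 highest for Hoxa5 (3.991). In myeloid cells, control pool 15 was highest for Hoxb5 (6.769 CPM), treated pool 20 for Hoxb6 (5.081) and treated pool 16 for the HOXA sum (3.557).

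In control MSC, pool 7 was lowest for Hoxc6 (0 CPM) and highest for Hoxd4 (24.83), and pool 5 highest for the HOXB sum (107.1). In treated MSC, pool 20 was highest for Hoxd8 (34.85 CPM), Hoxd9 (9.244) and the HOXD sum (48.52), pool 18 lowest for Hoxb2 (9.764), and pool 8, with 499300 counts, lowest for Hoxc9 (8.064) and the HOXC sum (50.40). WBM pool 15 was highest for Hoxa7 (2.670 CPM), Hoxd4 (7.343) and the HOXD sum (11.18).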

How the results depend on the processing

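Of 798 values of named members in population comparisons under alternatives, 749 kept direction and call, 48 kept direction and lost the call, and 1 reversed. Of 243 treatment values, 241 were the same and 2 reversed. The reversals were Hoxb7 in MSC without pool 3 (-0.21, up to 5.82 without others), Hoxb1 in treated CLP without treated pool 2 (-1.84, up to 2.84) and Hoxb4 in treated CLP without control pool 1 (0.60, down to -0.60). With the mouse pool as a block, 7 members were higher in CLP in place of 11, and no other count moved by over 1.5 times. No paired fit of treatment was possible because control and treated pools are different mice. Leaving out CLP pool 1, a setting chosen after seeing the data, also gave 7 higher in CLP, and 1 higher in GMP. DESeq2 gave 2 lower in HSC, 5 lower in GMP and 5 lower in MEP. No filter gave 1 lower in GMP, 2 higher in myeloid cells and 1 called in treated HSC. For myeloid cells against GMP, also chosen after seeing the data, no batch term gave 10 lower, where 4538 of 19721 genes were lower. Batch B alone gave 1 higher and 9 lower, where 3462 and 3995 of 18817 genes were. At 2 CPM, 5 members were detected in GMP, 4 in MEP and 4 in myeloid cells. Leaving out 1 library at a time gave 11 to 14 higher in HSC, 7 to 12 higher in CLP, 2 to 3 lower in GMP, 1 to 3 lower in MEP, 24 to 28 higher in MSC, and 3 to 5 higher and 4 to 6 lower in myeloid cells, and 0 treatment calls throughout. The cause of these shifts was not tested. Depth limits low members most in the 4 libraries under 1000000 counts.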
